A study of Mus musculus with 10 samples.

Results

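The PVT, or paraventricular thalamus, lies at the midline. Its excitatory neurons send axons to the amygdala, nucleus accumbens and prefrontal cortex, and fibers from the hypothalamus, brainstem and cortex reach them. The PVT has been tied to arousal, feeding and emotional behavior. PVT4 is a class of PVT neurons set apart by *Npsr1*, the receptor for neuropeptide S, *Bmper*, a secreted regulator of bone morphogenetic protein (BMP) signaling, *Fmo1*, a flavin monooxygenase, and *Kirrel*, an adhesion molecule of the immunoglobulin superfamily. NPSR1 is a G protein-coupled receptor that raises calcium and cyclic AMP in the cells that carry it, and neuropeptide S is known for promoting wakefulness and lowering anxiety-like behavior.

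The nuclei came from single-nucleus RNA sequencing of PVT tissue punches from untreated C57BL/6J mice aged 12 weeks, with no transgene or agent in any sample. The study's methods describe samples pooled from 4 mice, for 4 biological replicates. Whether this holds for all 10 libraries is not said there. The mice behind a nucleus cannot be told apart. There were 10 libraries. The labels of 6 call them female, and the labels of the other 4 give no sex, but the deposited metadata mark those nuclei as male, and they are called male 1 to male 4 below. The 10 libraries held 20503 nuclei after the authors' filters, of which the authors' clusters named 10410 as neurons.

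Members were chosen from marker UMIs (unique molecular identifiers, the molecules counted). Of the neurons, 10307 had more than 1000 genes, 4674 of these also had at least 2 UMIs of *C1ql3*, a synaptic organizer that marks PVT neurons, 4214 of those had no UMI of *Gad2*, an enzyme of GABA synthesis, and 3684 also had none of *Nwd2*, a gene of the neighboring habenula. For each of 5 marker sets, the mean of the log-scaled UMIs per 10000 was converted to a z score over the 3684 nuclei, and each nucleus joined the class with its highest z. The PVT4 class held 715 nuclei, the PVT1 class 905, PVT2 714, PVT3 667 and PVT5 683. The values that chose the members were those of 22 genes, namely 19 subtype markers and the 3 genes of the gate, and these are described below without a test. The study drew the marker sets from clusters of these same nuclei, so the calls on other genes describe how the classes differed from library to library and are no independent evidence that the classes are separate types.

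The male libraries held 21, 38, 176 and 179 PVT4 nuclei with medians of 24401, 13317, 16205 and 12351 UMIs per nucleus. The female libraries held 35 to 76 PVT4 nuclei, and their medians ran from 6011 to 8824.5 UMIs. Summed over its PVT4 nuclei, a library held 209357 to 3010922 UMIs. The male libraries were deeper per nucleus in every case, so sex and depth move together throughout. No barcode sequence occurred in more than 1 library among the classed nuclei.

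The label held for part of the class only. Of the 715 nuclei, 459 (64.2%) held a UMI of at least 1 of the 4 PVT4 markers, and 256 (35.8%) held none. All 254 gated nuclei without a UMI of any of the 19 markers were placed in PVT4, because a value of 0 in every set leaves the PVT4 z highest, at -0.42. No nucleus of PVT1, PVT2, PVT3 or PVT5 lacked a UMI of its own markers. The 2 kinds of PVT4 nuclei are called marker-positive and marker-free below. Both are given for some of the genes that differ between them, not for all, and this division was made after the data were seen.

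Among the 459 marker-positive nuclei, 250 held a UMI of 1 marker, 145 of 2 markers, 57 of 3 and 7 of all 4. *Npsr1* was detected in 46.2% of them and *Bmper* in 63.2%, against 4.85% and 5.93% of the nuclei of the other 4 classes together. *Kirrel* was detected in 38.6% and *Fmo1* in 13.1%, against 2.49% and 0.876%. Marker-positive nuclei were selected by a UMI of these genes and the other classes were not, so the 2 sides are not alike. Over all PVT4 nuclei, detection was 29.7% for *Npsr1*, 40.6% for *Bmper*, 24.8% for *Kirrel* and 8.39% for *Fmo1*. The same genes chose the class, so higher detection there follows in part from the rule. *Npsr1* and *Bmper* were found together in 117 nuclei, or 16.4% of the class. Full sets of markers in 1 nucleus were rare.

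Marker-free nuclei were more frequent in the shallower libraries. They made up 4.76%, 26.3%, 18.2% and 29.1% of the PVT4 nuclei of the 4 male libraries, and 46.3% to 68.6% of those of the 6 female libraries. Their median depth was 7783 UMIs, against 12655 in marker-positive nuclei and 11352 to 13908 in the other classes. When each nucleus was thinned to 3000 UMIs and the classes were formed again, 1516 nuclei were placed in PVT4 and 78.8% of them had no marker UMI.

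**Figure D1:**
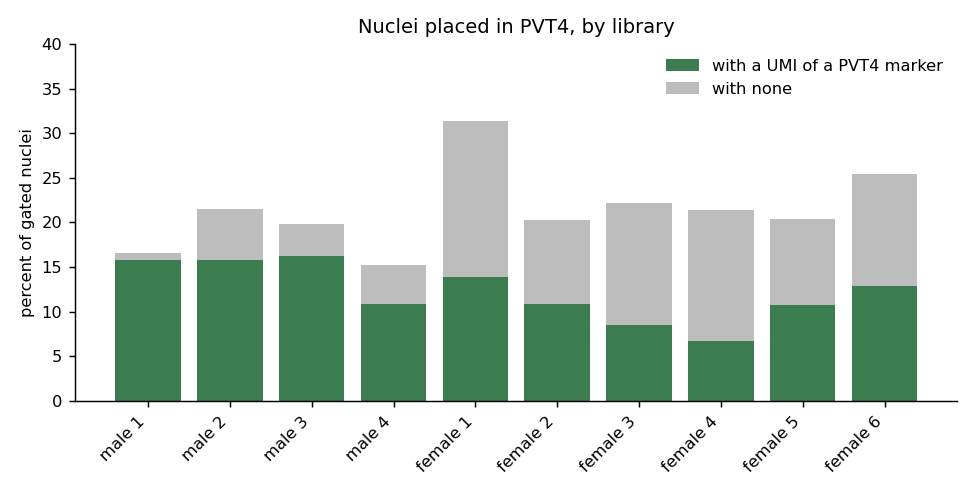
Percent of gated nuclei placed in PVT4 in each of the 10 libraries (bars), divided into nuclei with a UMI of a PVT4 marker (green) and nuclei with none (grey). The grey part takes 4.76% of the PVT4 nuclei in male 1 and 68.6% in female 4.

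The authors' own clusters of all neurons, which the rule used only to select neurons, divided the class along the same line. Of the marker-positive nuclei, 64.1% lay in the authors' cluster Neurons (2), 18.7% in Neurons (4) and 10.7% in Neurons (1). Of the marker-free nuclei, 51.2% lay in Neurons (1), 23.8% in Neurons (2) and none in Neurons (4). The PVT3 class lay mostly in Neurons (4), at 65.2%, while PVT1, PVT2 and PVT5 lay mostly in Neurons (1), at 76.9%, 82.6% and 59.2%.

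The z scores that chose the members also gave each nucleus a next-highest class, which is described here without a test. For 276 of the 459 marker-positive nuclei (60.1%) the next-highest z was that of PVT3, for 19.8% that of PVT5, for 12.4% PVT1 and for 7.63% PVT2. Close to the border, 33 PVT4 nuclei lay within 0.1 z of another class and 28 nuclei of other classes lay within 0.1 z of PVT4. *Bmper* was detected in 57.6% of the former and 35.7% of the latter, *Npsr1* in 21.2% and 14.3%, *Fmo1* in 9.09% and 3.57%, and *Kirrel* in 15.2% and 17.9%.

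*Npsr1*, the neuropeptide S receptor gene, was highest in PVT4 in all 10 libraries, as the rule provides. Levels are given as CPM, the UMIs of a gene scaled to the total of its library and class. Its level in PVT4 was 115.6, 221.1, 268.0 and 159.2 in the male libraries and 86.2 to 245.0 (median 136.4) in the female ones, with a mean of 164 ± 61.8 (SD, n = 10). The means of the other classes were 1.25 in PVT1, 2.74 in PVT2, 13.9 in PVT3 and 9.43 in PVT5. Every library's PVT4 value lay above the highest library mean over the 4 other classes together, 10.6. In marker-positive nuclei alone *Npsr1* averaged 283 CPM.

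*Bmper*, whose product binds BMPs outside the cell, reached 67.2, 73.7, 84.9 and 89.7 CPM in the male libraries and 15.2 to 68.5 (median 50.4) in the female ones. Its mean was 59.6 ± 23.0 CPM (SD, n = 10), against 12.3 in PVT3. *Kirrel* averaged 26.1 ± 14.5 CPM and *Fmo1* 10.7 ± 6.93 CPM over the 10 libraries. For each of the 4 markers the lowest PVT4 library stood above the highest library mean over the 4 other classes together. Class by class, *Bmper* was higher in PVT4 than in PVT3 in 9 of 10 libraries and *Fmo1* higher than in PVT5 in 9 of 10.

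These levels partly follow from the choice of nuclei. When each marker in turn was left out of its set and the classes were formed again, the ratio of PVT4 to the other classes fell from 25.4 to 2.72 for *Npsr1*, from 10.5 to 3.58 for *Bmper*, from 13.9 to 4.15 for *Fmo1* and from 15.6 to 5.86 for *Kirrel*. The left-out marker was still higher in PVT4 in 9, 10, 8 and 10 of the 10 libraries, in the same order. After thinning to 2000 UMIs per nucleus, *Npsr1* was detected in 16.2% of PVT4 nuclei (mean of the 10 libraries) and *Bmper* in 10.4%, against 28.6% and 36.4% without thinning. Oligodendrocytes, which should lack both, gave 0.593% and 0.0677% at the same depth.

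**Figure D2:**
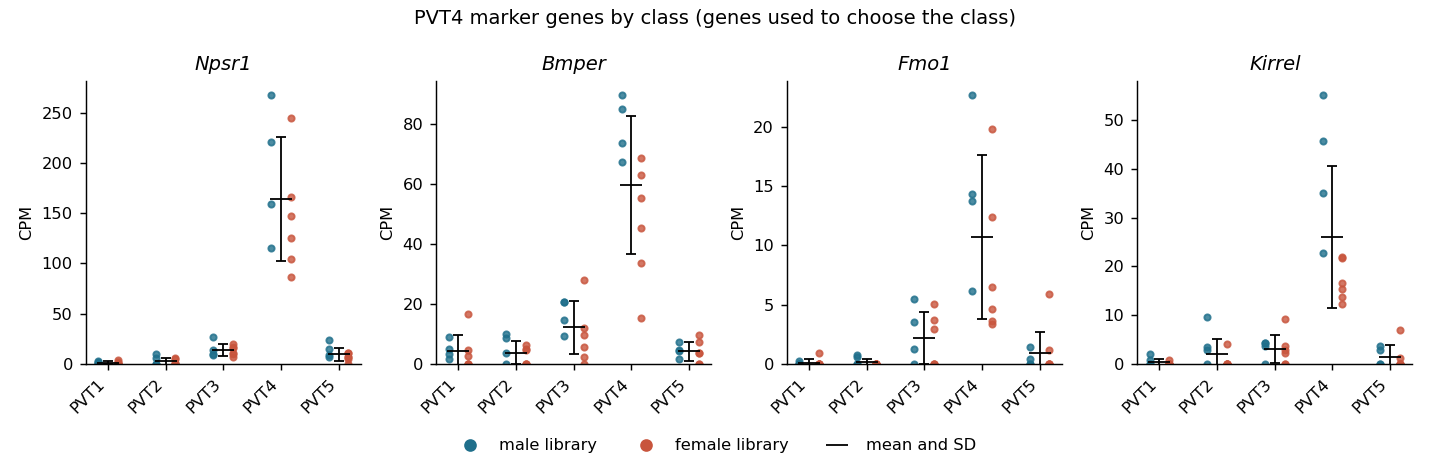
Level of *Npsr1*, *Bmper*, *Fmo1* and *Kirrel* in CPM (y axes from 0) in the 5 classes (x axis), with 1 point per male or female library and the mean and SD over 10 libraries. PVT4 has the highest mean in each panel because these genes chose the class, and its values spread widely, from 86.2 to 268.0 CPM for *Npsr1* and from 15.2 CPM upward for *Bmper*, whose mean in PVT3 is 12.3 CPM.

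Of the 4 PVT3 markers, *Cadps2*, *Glis3* and *Gypc* had higher means in PVT4 than in PVT1, PVT2 and PVT5, and *Col6a1* did not. *Cadps2*, a regulator of dense-core vesicle release, averaged 188 CPM in PVT4 and 315 in its marker-positive nuclei, against 1051 in PVT3. *Glis3*, a zinc finger transcription factor, averaged 198 and 316 CPM against 989 in PVT3. *Gypc*, a glycophorin gene, averaged 2.02 CPM in PVT4, 0.668 in PVT1, 1.07 in PVT2, 1.70 in PVT5 and 21.0 in PVT3, and *Col6a1*, a collagen, 0.365 CPM in PVT4, 0.403 to 1.14 in PVT1, PVT2 and PVT5 and 17.7 in PVT3. In every library all 4 were lower in PVT4 than in PVT3.

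By markers outside the rule the class was neuronal and glutamatergic. The rule had taken only nuclei of neuron clusters with no *Gad2* or *Nwd2* UMI. Neuronal identity and low GABAergic and habenula levels partly follow from that choice. *Rbfox3*, the gene of the neuronal nuclear antigen NeuN, averaged 229 ± 74.6 CPM (SD, n = 10) in PVT4 and 205 in the other classes, and *Slc17a6*, the vesicular glutamate transporter of the thalamus, 502 ± 128 and 530 CPM. The GABAergic genes *Gad1* and *Slc32a1* summed to 1.47 ± 2.49 CPM, against 0.718 ± 0.515 in the other classes. For neighboring regions, *Tac2* of the habenula averaged 3.09 CPM against 2.51 and *Gpr101*, used for GABAergic neurons nearby, 0.0753 against 0.645. The 15 markers of glia, vessel cells and ependyma summed to 448 ± 94.4 CPM (311 to 607), against 511 ± 75.1 in the other classes, with *Slc1a2* the most abundant and none at 0.

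The markers of 2 neighboring thalamic nuclei were higher in PVT4. *Cdh24*, the marker of the intermediodorsal nucleus, averaged 10.9 ± 5.20 CPM against 4.49 in the other classes. In the fit without the filter on low counts described below, its log2 fold change was 1.20 (edgeR adjusted p = 9.3e-06), higher in 9 of 10 libraries, and it was called in marker-positive (0.86) and marker-free nuclei (1.79). *Adarb2*, the marker of the mediodorsal nucleus, averaged 144 ± 159 CPM in PVT4 (35.9 to 512) against 61.8 ± 19.7 in the other classes. The level of *Adarb2* was 85.9 CPM in marker-positive and 201 in marker-free nuclei. In male 1, 5 nuclei held 186 of the 189 *Adarb2* UMIs of the class, and in female 5 the 5 nuclei with most held 305 of 391. The part of such nuclei in the results below was not tested.

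To ask which genes outside the rule set PVT4 apart, UMIs were summed per library and class and PVT4 was compared with the mean of the other 4 classes within libraries. PVT4 was higher for 158 of the 8013 genes tested (1.97%) and lower for 95 (1.19%), by edgeR's quasi-likelihood test with a Benjamini-Hochberg adjusted p under 0.05 and an absolute log2 fold change over 0.5. Of the 158, 74 had a mean level in PVT4 above that of every other class, and for 97 PVT3 was the highest of the other classes. For 71 of the 158 the mean in PVT3 was above that in PVT4, so a gene higher than the mean of the other classes need not be higher than PVT3. Of the 95, 45 were lower in PVT4 than in every other class, and for 47 the mean in PVT3 was below that in PVT4. With marker-positive nuclei alone, 230 genes were higher (2.95% of 7799) and 219 lower (2.81%). With marker-free nuclei alone, 93 were higher (1.19%) and 59 lower (0.757%). The median log2 fold change of all 8013 genes was 0.0033. The shares for all PVT4 nuclei and this median are the background for the gene lists counted over all PVT4 nuclei below. Without the filter on low counts, 375 of 15327 genes were higher (2.45%) and 141 lower (0.92%), and listed genes under the filter are given from that fit, named after their values were seen. Neither the median of that fit nor the shares among genes under the filter alone were computed. The counts and medians of lists under the filter thus have no matched background.

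Among the genes that passed the filter and were higher in PVT4 in every library, *Ankfn1*, which encodes an ankyrin-repeat and fibronectin-domain protein, had the largest log2 fold change. Its level was 256.4, 227.0, 324.0 and 218.7 CPM in the male libraries and 73.3 to 198.7 (median 135.6) in the female ones, against 37.4 to 57.2 for the average of the other 4 classes, which it did not overlap. The single class nearest to it, PVT3, averaged 95.2 CPM, with libraries from 62.6 to 128.1, which overlapped those of PVT4, although PVT4 was higher within each of the 10 libraries. The log2 fold change was 2.34 ± 0.10 (SE, edgeR adjusted p = 8.7e-32), and it was 2.71 in marker-positive and 0.68 in marker-free nuclei.

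*Ndst4*, a heparan sulfate sulfotransferase, measured 161.8, 71.8, 85.6 and 131.9 CPM in the male libraries and 62.9 to 118.6 (median 93.2) in the female ones, against at most 33.4 for the average of the other 4 classes. The highest of these was PVT5, at a mean of 36.3 CPM and at most 53.0 in a library. Its log2 fold change was 1.97 ± 0.10 (SE, edgeR adjusted p = 4.1e-27). *Cemip*, which degrades hyaluronan, had a log2 fold change of 2.23, *Adamts2*, a procollagen protease, 2.14, and *Col18a1*, a basement membrane collagen, 1.83. Over all nuclei *Cemip* was at 40.4 CPM in PVT4 and 40.2 in PVT3. Marker-positive nuclei were at 59.9 CPM, a log2 fold change of 0.67 relative to PVT3 (edgeR adjusted p = 0.0011), while in marker-free nuclei the log2 fold change relative to the other classes was -0.52 (edgeR adjusted p = 0.68).

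The other named genes of the 15 were of mixed roles. *Il1rapl2*, a synaptic receptor of the interleukin-1 family, measured 483.3, 289.0, 450.3 and 480.5 CPM in the male libraries and 160.5 to 346.5 (median 271.3) in the female ones, against at most 150.4 for the average of the other 4 classes. In PVT3 it averaged 164 CPM, with libraries up to 229 that overlapped those of PVT4, which was higher in 9 of 10 libraries. *Cntnap5b*, a neurexin-family adhesion molecule, averaged 610 ± 244 CPM against 224 ± 55.3, a log2 fold change of 1.47. *Clmp*, another immunoglobulin adhesion molecule, had a log2 fold change of 1.48, *Parm1*, a mucin-like membrane protein, 1.52, and the unnamed transcript *Gm43948* 1.57. *Caln1*, a calcium-binding protein, *Dpyd*, the enzyme that starts pyrimidine breakdown, and *Susd1* each had 1.22. Compared with PVT3 alone, PVT4 was higher in only 1 of 10 libraries for *Clmp* and 2 for *Caln1*. It was higher in 6 for *Parm1*, 8 for *Gm43948*, 9 for *Dpyd* and 10 for *Cntnap5b* and *Susd1*. *Il1rapl2* was called in marker-free nuclei too, at 0.88, and the 7 genes named with it here were not, with log2 fold changes between -0.48 (*Caln1*) and 0.43 (*Susd1*) there.

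The genes lowest in PVT4 relative to the mean of the other classes moved less. *Ltbp1*, which tethers latent TGF-beta to the matrix, measured 16.8, 17.5, 12.9 and 24.0 CPM in the male libraries and 11.4 to 25.4 (median 15.6) in the female ones, against 25.1 to 69.9 for the average of the other 4 classes. Its log2 fold change was -1.35 ± 0.15 (SE, edgeR adjusted p = 2.0e-11). *Trpc6*, a cation channel, was at -1.22, *Ror1*, a Wnt receptor, at -0.996, and *Xylt1*, which starts glycosaminoglycan chains, at -0.99. *Gpr176*, an orphan receptor known from the circadian clock, was at -0.89, *Nkd1*, an inhibitor of Wnt signaling, at -0.88, *Ptchd4* at -0.88, the transcript *Gm2694* at -0.87, and the peptidase gene *Cpq* and the transcription factor *Glis1* at -0.86. Against PVT3 alone, PVT4 was higher in 9 of 10 libraries for *Glis1*, 8 for *Xylt1* and 5 for *Cpq*. For the other genes named here it was higher in 3 or fewer.

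*Ror1* and *Ptchd4* were low in both kinds of PVT4 nuclei. *Ror1* was at -1.03 in marker-positive and -0.87 in marker-free nuclei, and *Ptchd4* at -0.87 and -0.84. For both, the highest PVT4 library (175.5 and 108.4 CPM) lay below the lowest library average of the other 4 classes (213.2 and 129.9 CPM). The lowest libraries of a single class, 120.1 CPM in PVT3 for *Ror1* and 80.5 in PVT2 for *Ptchd4*, did overlap PVT4. *Glis1* was at -1.47 in marker-positive nuclei and at 0.13 in marker-free ones, where it was not called (edgeR adjusted p = 0.83), and the 2 kinds differed by -1.60 ± 0.24 (SE, edgeR adjusted p = 1.25e-07).

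**Figure D3:**
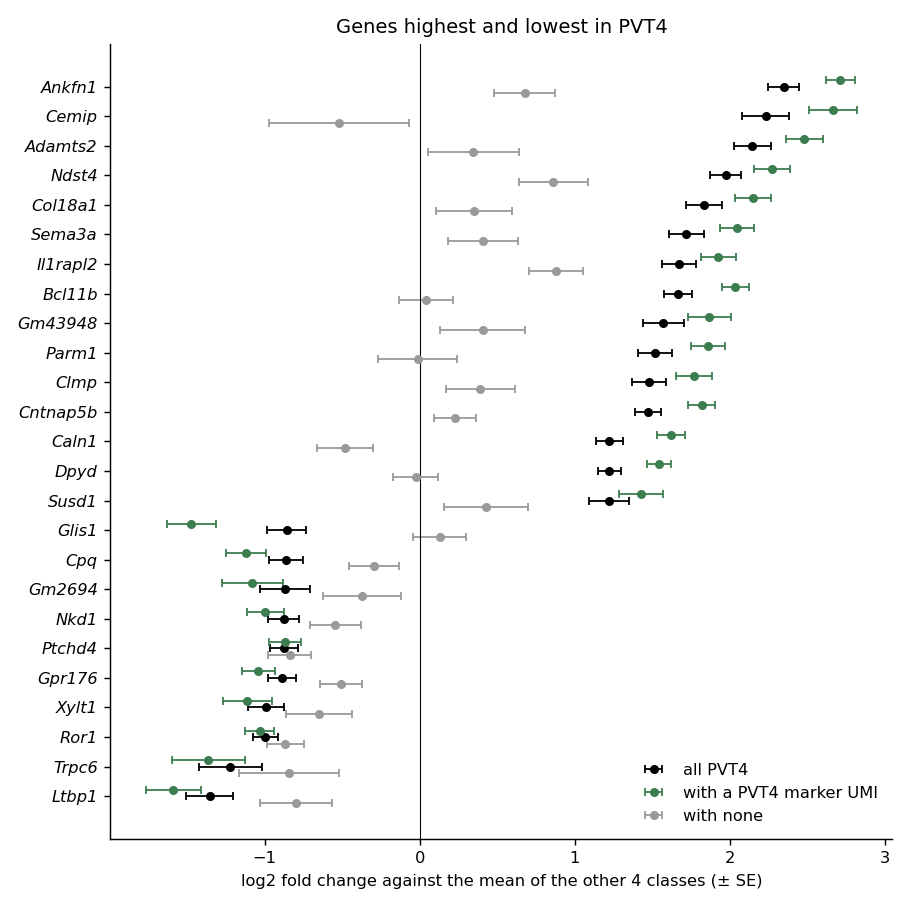
Log2 fold change relative to the other 4 classes (x axis, points with SE bars) for the 15 highest and 10 lowest genes on the y axis, for all PVT4 nuclei (black), marker-positive nuclei (green) and marker-free nuclei (grey). Green points lie farther from 0 than grey ones for all genes shown, by little for *Ptchd4*.

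Orexin receptors come next, since orexin fibers reach the PVT from the hypothalamus. *Hcrtr2*, the receptor for both orexins, measured 77.7, 29.1, 53.6 and 56.1 CPM in the male libraries and 50.1 to 94.2 (median 67.5) in the female ones, with 24.4 to 67.9 for the average of the other 4 classes. Its log2 fold change was 0.64 ± 0.12 (SE, edgeR adjusted p = 4.3e-05), with the PVT4 value above the other classes in 8 of 10 libraries and overlapping ranges. PVT3 held a like level, 60.0 CPM against 63.7 in PVT4, which was higher than PVT3 in 5 of 10 libraries, and *Hcrtr2* was called neither against PVT3 (0.04) nor against PVT5 (0.27) nor in marker-free nuclei (0.27). *Hcrtr1*, the receptor that prefers orexin A, was too low for the filter on low counts. In the fit without that filter its log2 fold change was 1.85 ± 0.22 (SE, edgeR adjusted p = 1.0e-11), higher in 9 of 10 libraries.

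*Hcrtr1* was a low transcript everywhere. It measured 16.4, 7.57, 21.5 and 15.6 CPM in the male libraries and 2.48 to 9.28 (median 6.96) in the female ones. Its mean was 15.2 CPM in marker-positive and 1.32 in marker-free nuclei, against 7.00 in PVT3 and 5.28 in PVT5. Over all PVT4 nuclei it averaged 10.2 CPM and was above PVT3 in 6 of 10 libraries. After thinning it was detected in 2.95% of PVT4 and 2.50% of PVT3 nuclei, and in 9.73% and 6.54% without thinning. Oligodendrocytes gave 0.109% after thinning.

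Other peptide receptors were mostly below the filter, which 10 of the 62 listed genes passed. Of the 10, 3 were higher and 1 lower, with a median log2 fold change of 0.24, and the 3 were *Tacr3*, the neurokinin B receptor (0.76), *Hcrtr2* and *Glp2r*, the glucagon-like peptide 2 receptor (0.59, and -0.035 with classes formed after thinning to 3000 UMIs). *Galr1*, a galanin receptor, was the lower one (-0.63), though above PVT3 in 8 of 10 libraries. *Tacr3* averaged 19.4 CPM in marker-positive and 35.5 in marker-free nuclei, against 26.6 in PVT1, 28.9 in PVT2 and 5.55 in PVT3, so PVT3 was the class with least of it. Of the opioid receptors, *Oprm1* and *Oprk1* both had a log2 fold change of 0.27, under the limit for a call, and *Npffr1*, the neuropeptide FF receptor, 0.25 in the unfiltered fit (edgeR adjusted p = 0.74). In that fit *Npffr1* was at 0.65 in marker-positive nuclei, which was not called (edgeR adjusted p = 0.14). In marker-free nuclei it was called lower, at -2.94 (edgeR adjusted p = 0.046). Marker-positive and marker-free nuclei differed by 3.598 (edgeR adjusted p = 0.0017), at low levels of 9.49 and 0.21 CPM.

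A further 28 peptide receptors could be fitted without the filter, of which 4 were higher and 1 lower (median 0.133). Beside *Hcrtr1*, the higher ones were *Gpr83*, *Sstr1*, a somatostatin receptor, and *Oxtr*, the oxytocin receptor. *Gpr83* averaged 11.1 CPM in PVT4 and 3.96 in PVT3, with a log2 fold change of 2.44 (edgeR adjusted p = 1.6e-15), and was higher in 10 of 10 libraries. *Sstr1* was at 1.94 (edgeR adjusted p = 1.5e-06, higher in 9 of 10) and *Oxtr* at 0.85 (edgeR adjusted p = 0.034, higher in 8 of 10), with means of 6.78 and 6.82 CPM in PVT4. All 3 were called in marker-positive and not in marker-free nuclei. *Vipr1*, a receptor for vasoactive intestinal peptide, was lower (-0.97).

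Among amine receptors, 10 of 33 genes passed the filter, with 2 higher, 1 lower and a median of -0.098. *Htr1d*, a serotonin receptor coupled to inhibitory G proteins, was at 0.93, with 24.9 CPM in PVT4 and 40.4 in PVT3, the higher of the pair in every library. *Chrm3*, the M3 muscarinic receptor, was at 0.61, with 0.46 in marker-positive nuclei, under the limit for a call, and 0.84 in marker-free ones. *Chrm2*, the M2 muscarinic receptor, was at -0.62, and at 0.17 with classes formed after thinning to 3000 UMIs. Its PVT4 level was above that of PVT3 in 9 of 10 libraries. *Chrm2* differed between the 2 kinds of nuclei by -1.49 on the log2 scale (edgeR adjusted p = 1.1e-06), with 52.4 CPM in marker-positive and 114.5 in marker-free ones, against 125.9 in the other classes. *Drd1*, the D1 dopamine receptor, had a log2 fold change of 0.64 in the unfiltered fit, which did not pass the test (edgeR adjusted p = 0.079). In marker-positive nuclei alone it was called at 0.98 (edgeR adjusted p = 0.0019), and the 2 kinds differed by 1.81 (edgeR adjusted p = 0.0097). PVT3 held more *Drd1*, at 21.4 CPM against 7.57 in PVT4 and 10.7 in marker-positive nuclei. Neither PVT4 nor its marker-positive nuclei were above PVT3 in any library.

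The genes that carry the signal of NPSR1 inside the cell were called at about the share of all genes. Of 34 listed G protein subunits, adenylyl cyclases, phospholipases and kinases, 27 passed the filter, none was higher and 1 was lower, with a median log2 fold change of 0.034. The lower gene was *Adcy2*, an adenylyl cyclase, at -1.02 ± 0.16 (SE, edgeR adjusted p = 7.4e-07). It measured 14.7, 5.82, 19.5 and 24.5 CPM in the male libraries and 20.9 to 68.5 (median 51.9) in the female ones, against 56.2 to 98.0 for the average of the other 4 classes and a mean of 14.98 in PVT3. Fitted alone, the male libraries gave -1.59 and the female libraries -0.19, which was not called (edgeR adjusted p = 0.73).

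Of 34 genes of the BMP pathway, to which *Bmper* belongs, 13 passed the filter. The median was -0.026. Of these, 2 were higher and 1 was lower. *Fstl4*, a follistatin-like gene, was higher at 1.31, and *Tll1*, a protease that cleaves BMP inhibitors, was lower at -0.59, and at 0.29 with classes formed after thinning. *Fstl4* was higher still in PVT3, at 237 against 151 CPM in PVT4. *Tll1* was at 13.8 CPM in marker-positive and 108.9 CPM in marker-free nuclei, and the log2 fold changes against the other classes were -1.77 and 0.71, both called. Over all PVT4 nuclei *Tll1* was above PVT3 in 9 of 10 libraries.

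Potassium channels held the most higher genes of the channel lists. Of 45 tested among 70, 6 were higher and 1 lower, and the median was 0.017. *Kcnh1*, a voltage-gated channel, was at 1.496, and the two-pore leak channels *Kcnk13*, *Kcnk2* and *Kcnk10* at 1.20, 0.97 and 0.66. *Kcnk10* measured 193.3, 151.3, 203.2 and 188.5 CPM in the male libraries and 113.4 to 177.5 (median 128.6) in the female ones, and in each library exceeded the average of the other 4 classes. PVT3 was high in these channels too. *Kcnh1* averaged 102 CPM in PVT3 and 58.2 in PVT4 and was higher in PVT3 in all 10 libraries, *Kcnk2* averaged 92.6 and 81.4 CPM and *Kcnk13* 31.2 and 31.7. *Kcnk10* was at 159 CPM in PVT3 and 155 in PVT4, higher in PVT4 in 5 of 10 libraries. *Kcnh8* (0.81) and *Kcnj5* (0.55) completed the group, and the related *Kcnk12* was lower at -0.54. Of the 38 calcium, sodium and other cation channel genes tested (median -0.060), 1 was higher (*Cacna2d2*, an auxiliary calcium channel subunit, 0.56) and 5 lower, among them *Trpc6*, *Ano3* (-0.63), *Trpm3* (-0.55) and *Cacna2d4* (-0.51). Within libraries, PVT4 was above PVT3 in 3 of 10 for *Cacna2d2* and in 7 of 10 for *Trpm3*.

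*Kcna1* (0.03), *Cacna1i* (-0.32) and, in the unfiltered fit, *Cacna1h* (0.50) did not pass over all PVT4 nuclei. In marker-positive nuclei *Cacna1h* was called at 0.75 (edgeR adjusted p = 0.022), and *Cacna1i* was at -0.47 (edgeR adjusted p = 0.016), under the limit of size. *Cacna1h* was highest in PVT3, at 21.4 CPM against 6.08 in PVT4 and 7.99 in marker-positive nuclei. These nuclei were above PVT3 in 1 of 10 libraries. Transmitter receptor genes gave 1 higher and 2 lower of 43 tested (median -0.028). *Glra3*, a glycine receptor subunit, was at 1.14, with 39.7 CPM in PVT4 and 51.1 in PVT3 (PVT4 higher than PVT3 in 4 of 10 libraries), and its relative *Glra2* at -0.29, while *Gria3*, an AMPA receptor subunit, was at -0.76 and *Grm8*, a presynaptic metabotropic receptor, at -0.52, which changed sign (0.064) with classes formed after thinning. PVT4 was above PVT3 for *Gria3* in 8 and for *Grm8* in 10 of 10 libraries.

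Adhesion molecules gave 7 higher and 1 lower of 65 tested, with a median of 0.043. Beside *Cntnap5b* they were its relative *Cntnap5a* (1.26), *Pcdh7* (1.05), *Nrxn3* (0.82), *Pcdh15* (0.73), *Lrrtm4* (0.70) and *Kirrel3* (0.63), a relative of *Kirrel*, and *Cdh7* was the lower one (-0.50). In 10 of 10 libraries *Cdh7* was higher in PVT4 than in PVT3. *Pcdh7* and *Cntnap5a* were called in both kinds of PVT4 nuclei. *Nrxn3*, a presynaptic neurexin, was more abundant in marker-free nuclei, at 882 CPM against 430 in marker-positive ones.

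Axon guidance genes went both ways, 4 higher and 3 lower of 34 tested (median 0.035). *Sema3a*, a secreted repellent, was at 1.72, *Nrp2*, a semaphorin co-receptor, at 1.21, *Sema6a* at 0.72 and *Sema5a* at 0.69. *Sema5b* (-0.82) and the ephrin receptors *Epha4* (-0.58) and *Epha3* (-0.53) were lower, of which *Sema5b* (0.093) and *Epha3* (0.073) changed sign with classes formed after thinning. Compared with PVT3 alone, *Sema5b* and *Epha3* were higher in PVT4 in 10 of 10 libraries and *Epha4* in 3. *Nrp2* was higher in PVT3 in all 10 libraries, at 80.6 against 36.3 CPM. *Sema3a* averaged 87.3 ± 32.5 CPM in PVT4 and 91.9 in PVT3, with 8.71 in PVT2. In marker-positive nuclei it was at 2.04, and in marker-free ones at 0.41, which was not called (edgeR adjusted p = 0.42).

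Of 46 transcription factors tested among 70, 4 were higher and 2 lower, with a median of -0.073. *Bcl11b*, known from deep-layer cortical projection neurons, was at 1.66 and its relative *Bcl11a* at 0.61, while *Sox5* was at 1.01. *Bcl11b* was above the other classes in 10 of 10 libraries and above PVT3 in 1 of 10, with means of 119 ± 35.1 CPM in PVT4, 186 in PVT3 and 13.6 to 45.6 in the other classes. In marker-positive nuclei *Bcl11b* was at 2.03, and in marker-free ones at 0.04, which was not called (edgeR adjusted p = 0.95). *Sox5* varied between libraries (30.4 ± 34.4 CPM). *Etv1* (-0.75) and *Npas3* (-0.51) were lower, and changed sign (0.021 and 0.047) when the classes were formed after thinning to 3000 UMIs. Both were above PVT3 in most libraries, 8 and 7 of 10.

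Peptide, calcium-binding and synaptic organizer genes gave 3 higher and none lower of 18 tested (median 0.051). These were *Cbln2* (1.08) and *Cbln4* (0.55), which organize synapses from the presynaptic side, and the neuropeptide *Gal* (0.88, and -0.077 with classes formed after thinning). *Gal* averaged 34.5 ± 25.9 CPM in marker-positive and 3.09 in marker-free nuclei, against 35.9 in PVT3. *Calb1* (0.02) and *Calb2* (-0.10) did not pass, and *Pvalb* was near 0, at 1.26 CPM.

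Of 14 further genes of this list fitted without the filter, 5 were higher and 1 lower (median 0.524, with no matched background). The peptide precursors *Penk* (2.95, edgeR adjusted p = 2.0e-10) and *Sst* (2.49, edgeR adjusted p = 9.1e-08) had the largest values at low levels, 4.30 and 4.10 CPM in PVT4, and were higher in 6 and 5 of 10 libraries. *Adcyap1*, the precursor of the peptide PACAP, was at 1.18 (edgeR adjusted p = 0.00016, higher in 9 of 10). *Nts*, the neurotensin precursor, was at 1.11 (edgeR adjusted p = 0.0012, higher in 5 of 10), with 8.86 CPM in PVT4 and 28.2 in PVT3. *Dlk1*, a non-canonical Notch ligand, was at 1.44, and the growth factor *Fgf10* was lower (-1.43). Of these 6, *Sst* (3.26) and *Dlk1* (1.93) were called in marker-free nuclei.

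Under the filter, the remaining lists held 5 higher of 18 axon guidance genes (*Nrp1*, *Efnb2*, *Sema3f*, *Sema3d* and *Ntn4*), 3 of 10 adhesion molecules (*Dscaml1*, *Cdh24* and *Pcdh8*), 2 of 18 transcription factors (*Ebf1* and *Esrrg*, the latter at 0.0019 in marker-positive and 1.79 in marker-free nuclei), 2 of 17 potassium channels (*Kcna5* and *Kcnk9*) and 2 of 10 immediate early genes (*Egr3* and *Junb*), with none lower. Among 16 BMP pathway genes *Rgmb* was higher and *Fstl1* lower, and in the amine receptor, transmitter receptor, NPSR1 signaling, cation channel, insulin and glial lists none was called.

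In the list of insulin and feeding genes, 1 of 14 was called, and the median was -0.035. *Insrr*, the insulin receptor-related gene, was at 1.66 ± 0.18 (SE, edgeR adjusted p = 1.8e-11) relative to the other classes. It was higher in 7 of 10 libraries and lower than in PVT3 in all 10, at 17.5 ± 9.48 CPM against 39.0. In marker-positive nuclei *Insrr* was at 2.02, and in marker-free ones at -0.35, which was not called (edgeR adjusted p = 0.85). Of 8 immediate early genes tested, which follow neuronal activity, *Btg2* and *Egr1* were higher, both at 0.63, with a median over the 8 of 0.21. None of the 4 glial genes that passed the filter was called, and of the markers of other neurons the 1 tested, *Adarb2*, was higher at 1.12 (edgeR adjusted p = 8.5e-05) and not called in marker-positive nuclei (0.42, edgeR adjusted p = 0.37).

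With marker-positive nuclei alone, several lists held other counts than with all PVT4 nuclei. The background for these list counts was 221 genes higher and 218 lower of 7751. Amine receptors had 1 higher (*Htr1d*) and 3 lower (*Htr2c*, *Adra1b* and *Chrm2*) of 8 tested, with a median of -0.352. Potassium channels had 7 higher and 4 lower of 44, transmitter receptors 2 and 4 of 43, cation channels 2 and 6 of 37 and axon guidance genes 5 and 6 of 33. Adhesion molecules had 7 higher and 3 lower of 65, transcription factors 3 and 4 of 42, peptide and calcium-binding genes 3 and 1 of 18 and immediate early genes 3 and 0 of 8. The glial list had 1 lower of 4, the astrocyte transporter *Slc1a2*, and of the markers of other neurons none of 1 was called. Peptide receptors, NPSR1 signaling, BMP pathway and insulin genes had the counts given above.

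**Figure D4:**
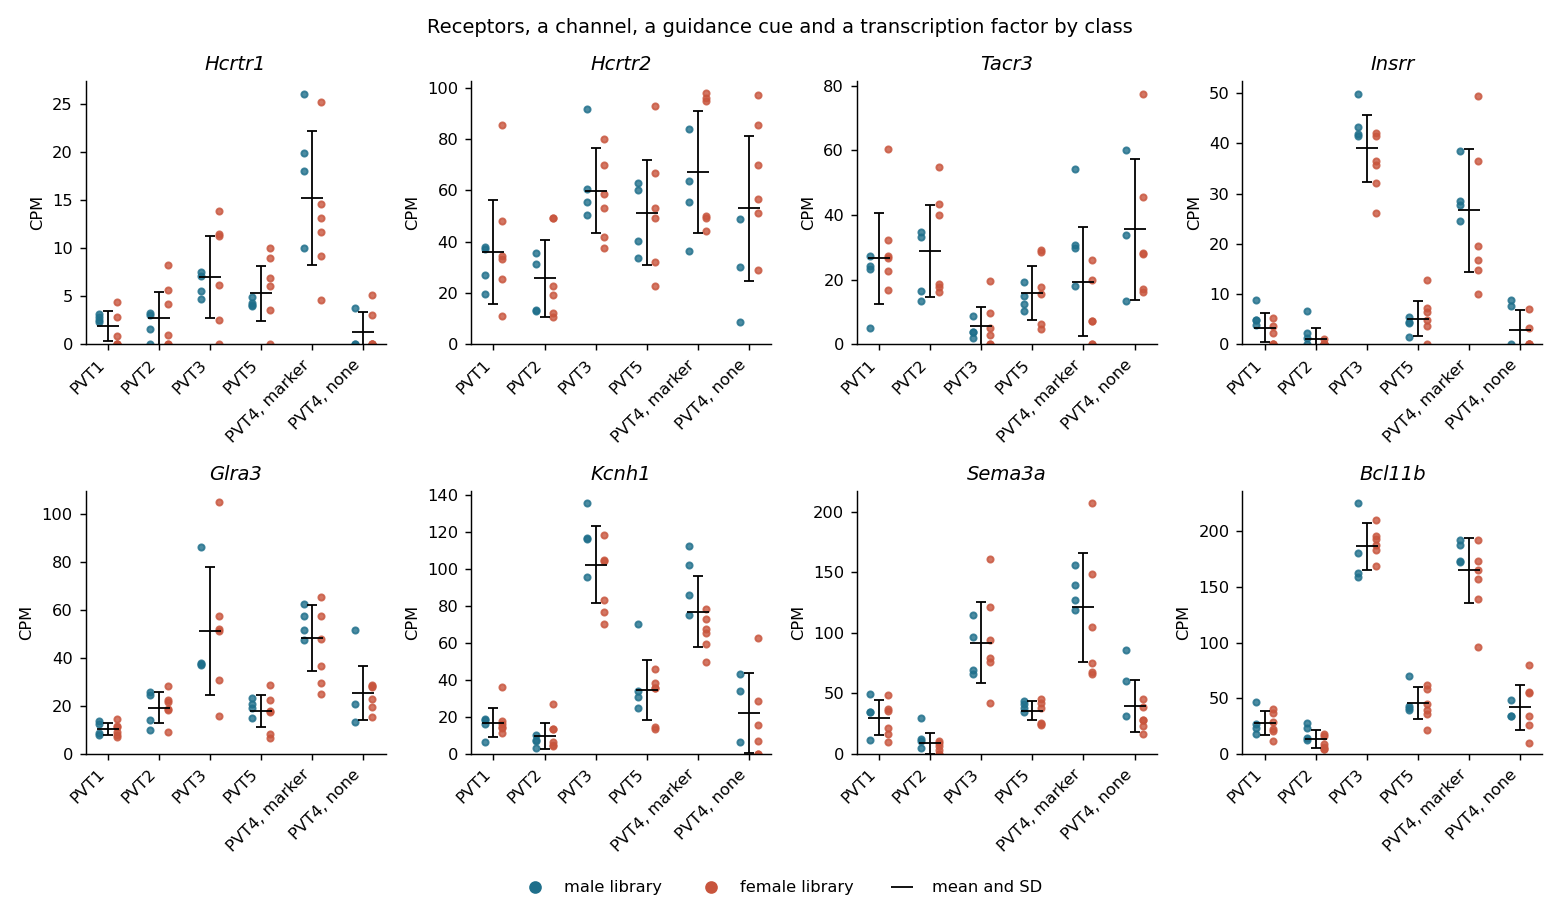
Levels in CPM (y axes from 0) of *Hcrtr1*, *Hcrtr2*, *Tacr3*, *Insrr*, *Glra3*, *Kcnh1*, *Sema3a* and *Bcl11b* in PVT1, PVT2, PVT3, PVT5 and the marker-positive and marker-free nuclei of PVT4 (x axes), with 1 point per male or female library and the mean and SD. *Bcl11b* is at 165 CPM in marker-positive PVT4 and 186 CPM in PVT3, while *Hcrtr1* is at 15.2 and 7.00 CPM.

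PVT3 and PVT5 were compared with PVT4 directly in the same fit. The choice of these 2 came from the study's account of the classes, and PVT1 and PVT2 were not compared singly. Against PVT3, PVT4 was higher for 390 genes (4.87% of 8013) and lower for 282 (3.52%). Against PVT5 it was higher for 199 genes (2.48%) and lower for 199 (2.48%).

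Of the 390 genes higher than in PVT3, 197 lay within the limits of at least 10 CPM and 1 direction in every library. Among these, the genes that most separated PVT4 upward from PVT3 were *Igf1*, insulin-like growth factor 1 (log2 fold change 2.48), *Ndst4* (2.38), *Tacr3* (2.23), *Thsd7b*, a thrombospondin-domain protein (2.12), and *Susd1* (2.10). *Thsd7b* measured 420, 768, 800 and 913 CPM in the male libraries and 436 to 740 in the female ones, against 36.5 to 258 in PVT3. *Igf1* was at 38.1 CPM in PVT4 and 5.09 in PVT3, but at 41.2 to 75.0 in the other classes, so here PVT3 was the low class. Among those downward were *Maf*, a leucine zipper transcription factor (-2.16), *Lamb1*, a laminin (-1.99), *Pparg*, a nuclear receptor (-1.97), and the transcript *C79798* (-1.79).

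Against PVT5, 63 of the 199 higher genes lay within the same limits. The highest of these were *Adamts2* (2.30), *Cemip* (2.25), *Clmp* (2.12), *C79798* (2.08) and *Insrr* (2.03). The lowest within these limits were *Adcy2* (-1.99), *Synpr*, a synaptic vesicle protein (-1.79), *Cobll1* (-1.73), *Palld*, an actin scaffold (-1.58), and *Gria3* (-1.37). *Synpr* was at 32.3 CPM in PVT4, 25.01 in PVT3 and 102 in PVT5. *Synpr* and *Cemip* did not pass the test against PVT3 over all PVT4 nuclei (0.12 and 0.24), while *Ndst4* and *Adamts2* were called against both classes.

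The 2 kinds of PVT4 nuclei were compared with each other as well. Marker-positive nuclei were higher for 270 genes (3.46% of 7799) and lower for 289 (3.71%), by edgeR under the same limits. *Ccdc187* (log2 difference 3.59), *Lrp4*, the agrin receptor of the neuromuscular synapse (3.25), *Gal* (3.19) and *Cemip* (3.18) stood at the upper end, and *Tll1* (-2.48) at the lower. *Gal* and *Cemip* were not used to form the classes. These 4 genes and *Tll1* were picked after their values were seen. Among genes that passed the filter, the largest positive log2 fold changes of marker-free nuclei against the other classes included those of *Adarb2* (1.86), the guidance cue *Slit2* (1.48), *Fign*, a microtubule-severing enzyme (1.46), *Sema6a* (1.44) and *Nrxn3* (1.42), also picked after their values were seen.

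The share of gated nuclei in PVT4 was 16.5%, 21.5%, 19.8% and 15.3% in the male libraries and 20.3% to 31.4% in the female ones. The means were 18.3 ± 2.86% (SD, n = 4) and 23.5 ± 4.30% (SD, n = 6), a difference of -5.23 percentage points that did not pass an exact two-sided permutation test over the 210 arrangements of libraries (p = 0.0714). The ranges overlapped. In the library with fewest gated nuclei, male 1, the share of 16.5% had a 95% Wilson interval of 11.1% to 24.0%, which covers counting error only. Without the 254 nuclei that held no marker UMI, the difference had the other sign, at 3.05 percentage points (exact permutation p = 0.157).

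Whether PVT4 differed between the sets of libraries in its contrast with the other classes was tested by an interaction term, which compares classes within libraries. The male minus female difference of the log2 fold change was above 0 for 33 of 8013 genes (0.412%) and below 0 for 41 (0.512%), by edgeR at an adjusted p under 0.05. The total of 74 fell to 13 without male 3, 25 without female 5 and 48 without female 4. The most positive were *Ccdc187* (1.48), *Rerg* (1.40), a RAS-like growth inhibitor, *Pard3b* (1.23), a cell polarity gene, *Prex2* (1.16), a Rac exchange factor, and *Zdhhc23* (1.01), a palmitoyltransferase. The most negative were *Adcy2* (-1.39), *A330008L17Rik* (-1.35), *Gm20752* (-1.26), *Osbpl3* (-1.24), an oxysterol-binding protein, and *Chrm2* (-1.23).

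A negative value did not mean a stronger rise in female libraries for all of these genes. Fitted in each set alone, *Adcy2* was at -1.59 in the male and -0.19 in the female libraries and *Chrm2* at -1.09 and 0.15, so the lower level in PVT4 was called in the male libraries only. *Osbpl3* was at -0.69 and 0.53 and *Gm20752* at -0.81 and 0.48, called in the male libraries alone. *A330008L17Rik* was at -0.10 in the male libraries and at 1.19, called, in the female ones. Of the positive values, *Zdhhc23* was at 0.24 in the male and -0.74 in the female libraries, called in the latter.

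None of the 74 remained called once the nuclei with no marker UMI were left out. In that fit edgeR called 0 of 7697 genes, with 429 at an unadjusted p under 0.05, and DESeq2 called 0 as well. *Chrm2* was then at -1.54 (edgeR adjusted p = 0.0957), *Adcy2* at -1.41 (0.261) and *Prex2* at 1.10 (0.476), while *Gm20752* was at -0.54 (0.927) and *Ccdc187* at 0.80 (0.869). The direction of the 10 named genes was the same in both fits.

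**Figure D5:**
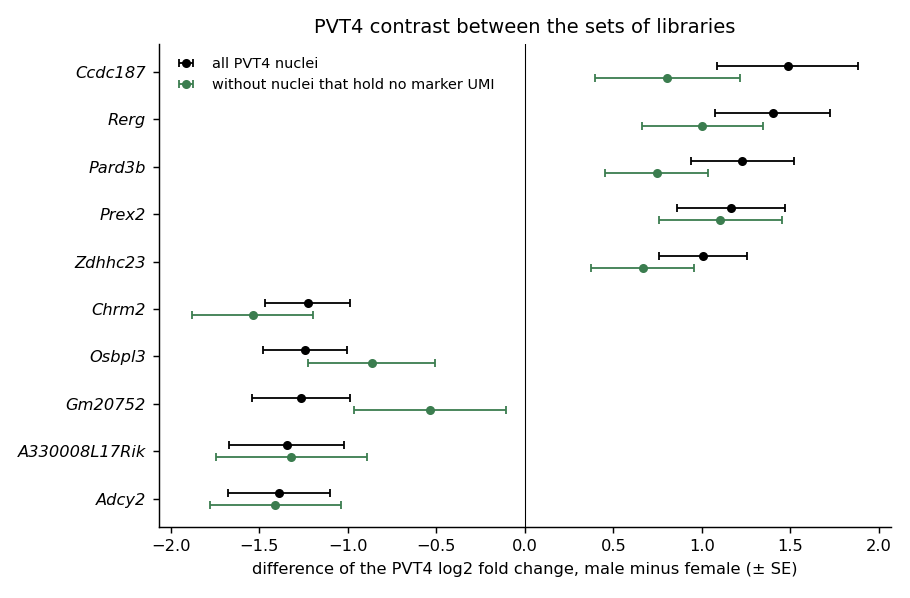
Difference of the PVT4 log2 fold change between male and female libraries (x axis, male minus female, points with SE bars) for the 10 genes on the y axis, with all PVT4 nuclei (black) and without nuclei that held no marker UMI (green). *Ccdc187* moves from 1.48 to 0.80 and *Gm20752* from -1.26 to -0.54, and every gene keeps its side of 0.

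The PVT4 sums of the male and female libraries were also set side by side, as a description of the 2 sets. At an edgeR adjusted p under 0.05, 122 of 7359 genes were higher in the male libraries (1.66%) and 150 in the female ones (2.04%). The total of 272 was 675 without male 2, 177 without male 3 and 178 without female 5. The ends of this list were *Ctnnd1* (4.20) and *Pakap* (4.18) on the male side and *Gpr63* (-5.82) and *Kcnq1* (-5.76) on the female side, picked after their values were seen. Over all nuclei, 1555 genes had at least 50 UMIs in the male libraries and 0 in the female ones, 509 had the reverse, and the 13 mitochondrial genes had 0 UMIs in the male libraries and 562659 in the female ones. Sex, depth and gene annotation cannot be told apart in this comparison.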

How the data were processed

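PVT tissue punches of 4 male and 6 female libraries had been sequenced as nuclei with a 10x Genomics kit for the 3′ end of transcripts. The UMI counts per gene and nucleus were deposited by the authors, unnormalized, together with cluster names, sex and the percent of mitochondrial UMIs per nucleus; per the submitters' processing notes, Cell Ranger 6.1.1 and build mm10 were used. The authors had left out nuclei under 200 genes or over 5% mitochondrial UMIs and clusters they judged doublets or of low quality. Their metadata carry a doublet call for the 13002 male nuclei only, all singlets, and no caller was run here. An alternative left out nuclei above 2 times their library's median UMIs, which removed 12 PVT4 nuclei.

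Counts were summed per library and class (at least 10 nuclei, which left out the 1 marker-free nucleus of male 1) and fitted in edgeR 4.0.16 (R 4.3.3) with TMM scaling, filterByExpr, library and class as terms and glmQLFTest. Genes needed 10 UMIs in each set of libraries, and mitochondrial genes were left out. The interaction and the comparison of PVT4 sums had an adjusted p limit alone. DESeq2 1.42.0 was an alternative. A TMM level is in CPM, and the levels of cell type markers and left-out markers are plain CPM. A library counted as higher where PVT4 exceeded the arithmetic mean of the other 4 classes. The fit was tested on simulated counts with known changes.

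Named genes were the 22 of the rule, the study's subtype genes, the 15 highest and 10 lowest called genes of at least 10 CPM with 1 direction in every library, up to 3 called genes each way in each of 15 lists, and the 5 extreme genes each way of the other contrasts. Some genes under this rule are not reported here. The members and lists were chosen with earlier results of these data known. P-values measure the spread between library pools.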

Additional observations from a re-analysis of the deposited data

Results flagged for a closer look

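In the 40 groups of libraries examined for a library far from the rest, 3 stood apart by Dixon's limit, and chance alone gives about 5% of such groups. *Adarb2*, the mediodorsal marker, was at 360 CPM in the PVT4 nuclei of male 1 and at 512 CPM in those of female 5, far above the other libraries of each set. *Cemip* was at 59.6 CPM in female 3, above the other female libraries.

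The PVT4 contrast with the other classes differed between male and female libraries by the interaction term for 16 of the named genes, male minus female on the log2 scale. The difference was above 0 for *Ankfn1* (0.84), *Fstl4* (0.87), *Kcnh1* (0.98), *Zdhhc23* (1.01), *Prex2* (1.16), *Pard3b* (1.23), *Rerg* (1.40) and *Ccdc187* (1.48). It was below 0 for *Epha3* (-0.49), *Gria3* (-0.78), *Tll1* (-0.999), *Chrm2* (-1.23), *Osbpl3* (-1.24), *Gm20752* (-1.26), *A330008L17Rik* (-1.35) and *Adcy2* (-1.39). *Epha3*, *Gria3*, *Tll1*, *Chrm2* and *Adcy2* were lower in PVT4 than the mean of the other classes. For them a negative value marks a larger reduction in the male libraries. In this order, their log2 fold changes were -0.73, -1.10, -0.92, -1.09 and -1.59 there and -0.22, -0.31, 0.09, 0.15 and -0.19 in the female libraries alone. Marker-free nuclei, which were more frequent in the female libraries, were part of each of these values, and no gene was called without the nuclei that held no marker UMI. The size of the difference then stayed close for *Adcy2* (-1.41), *A330008L17Rik* (-1.32) and *Prex2* (1.10) and was larger for *Chrm2* (-1.54). It was smaller for *Gm20752* (-0.54), *Ccdc187* (0.80), *Pard3b* (0.74), *Rerg* (1.00), *Osbpl3* (-0.87) and *Zdhhc23* (0.66). The part of the marker-free nuclei in the lost calls was not tested.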

How the results depend on the processing

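The main limits are depth and membership. Without nuclei that held no marker UMI (chosen after seeing the data), calls went from 253 to 432 for PVT4 against the other classes, from 74 to 0 for the interaction and from 272 to 91 for the sums of the 2 sets. With nuclei of a clear class only (0.5 z above the next), these counts were 479, 0 and 65, and 625 instead of 398 against PVT5. Classes formed after thinning to 3000 UMIs gave 55 against the other classes, 105 against PVT5 and 0 for the interaction (348 genes at an unadjusted p under 0.05 by edgeR, 413 in the clear class, 0 calls by DESeq2 in both), and z scores within each library gave 37. Without the filter on low counts, calls were 516 against the other classes, 1123 against PVT3 (672 with it), 650 against PVT5 and 838 for marker-positive nuclei (449). Female libraries alone gave 107 against the other classes and 173 against PVT5, and the 4 libraries with no sex in their labels 558 and 709. Without library as a term (no replicate block), counts were 159 against the other classes, 231 against PVT5 and 89 for marker-free nuclei (152).

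Leaving out 1 library gave 185 to 294 calls against the other classes, 570 to 719 against PVT3, 291 to 457 against PVT5, 352 to 495 for marker-positive, 103 to 149 for marker-free and 424 to 573 (559) between the 2 kinds. The interaction ranged from 13 to 84, with 13 without male 3, 25 without female 5 and 48 without female 4. The sums ranged from 177 to 675, with 675 without male 2, 177 without male 3 and 178 without female 5.

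The share of PVT4 averaged 21.4% of gated nuclei (20.3 to 22.1% leaving out 1 library), 13.3% in the clear class, 39.3% after thinning, 13.4% without nuclei that held no marker UMI and 7.44% of all neurons. Its difference of -5.23 points (-6.29 to -3.65 leaving out 1 library) was 4.26 in the clear class, 2.46 after thinning and 3.05 without nuclei that held no marker UMI, all reversed, and it passed the exact permutation test with z within each library (-6.87, p = 0.00476) and with *C1ql3* at 1 UMI or more (-6.22, p = 0.0476). The *Npsr1* ratio was 2.72 with the marker left out. Detection without thinning was 28.6% for *Npsr1*, 36.4% for *Bmper*, 7.89% for *Fmo1*, 21.7% for *Kirrel* and 9.73% for *Hcrtr1*. The causes were not tested.

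Replicate numbers of male and female libraries did not pair them (correlations of same-numbered PVT4 deviations -0.0534 to 0.0776). With the replicate block, numbers 1 to 4, the sums gave 98 calls and the share -5.53 points (exact permutation p = 0.25).

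Of 2092 values for 100 results on single genes, 1871 kept their direction and side of the threshold, 196 fell below it, 2 rose past it and 23 changed sign. Of the 25 highest and lowest genes, 12 passed under every alternative and none changed sign. Of the nuclei placed in PVT4 after thinning to 3000 UMIs, 78.8% had no marker UMI left. They were largely other nuclei than the members by the rule, with full counts summed. With those classes the sign changed for *Kcna1* (-0.17), *Cacna1i* (0.10), *Calb2* (0.069), *Glp2r* (-0.035), *Chrm2* (0.17), *Tll1* (0.29), *Grm8* (0.064), *Sema5b* (0.093), *Epha3* (0.073), *Etv1* (0.021), *Npas3* (0.047) and *Gal* (-0.077). In female libraries alone it changed for *Kcna1* (-0.15), *Cacna1i* (0.093), *Chrm2* (0.15) and *Tll1* (0.090). *Kcna1* ranged from -0.10 (without male 3) to 0.15 leaving out 1 library, with -0.04 without male 2, and *Calb1* from -0.11 (without female 5) to 0.14. *Calb1* was also at -0.15 in the clear class, -0.038 without nuclei above 2 times the median UMIs, -0.20 without nuclei that held no marker UMI and -0.21 in the 4 libraries with no sex in their labels.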
